A study of Mus musculus with 6 samples.

Results

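Messenger RNA of 45 nuclear genes was examined on 6 Affymetrix arrays of mouse aorta. The genes encode subunits of respiratory complexes II, III, IV and V, and cytochrome c. They were taken from the platform annotation by name: Sdha, Sdhb, Sdhc, Sdhd, Cyc1, Cycs and every gene whose symbol begins with Uqcr, Cox4, Cox5, Cox6, Cox7, Cox8 or Atp5, apart from Cox7a1 and Cox8b, which are described separately. The 45 were among 12393 genes with a probe set of their own. Where a gene had several probe sets, the brightest by its mean over the 6 arrays stood for it. By complex, 4 genes belonged to complex II, 9 to complex III, 14 to complex IV and 17 to complex V, and Cycs stood alone.

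The arrays carried RNA of C57BL/6J mice, an inbred strain much used for obesity brought on by diet. The study asked which genes of the aorta differ after a high fat diet. Each diet had 3 arrays, each of RNA pooled from 3 aortas described as stripped of adventitia and periaortic fat. Several fat cell markers were bright on every array, as given below. The high fat diet lasted 16 to 18 weeks and, in high fat replicates 2 and 3, was begun when the mice were 10 weeks old. High fat replicate 1 carried an age of 16 to 20 weeks, without saying at which point, and no sex. The other 5 were labelled male. Chow replicates 2 and 3 were 26 to 28 weeks old, and chow replicate 1 had no age. Because each array is a pool, n = 3 pools per diet, and the p-values reflect how pools vary and not how single mice vary. In such bulk RNA, fewer cells of a type and less RNA per cell cannot be told apart.

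The respiratory chain passes electrons from fuel to oxygen in the inner mitochondrial membrane. Complex II, succinate dehydrogenase, takes electrons from succinate and is also an enzyme of the tricarboxylic acid cycle. Complex III hands electrons from ubiquinol to cytochrome c, and complex IV, cytochrome c oxidase, hands them to oxygen. Complexes III and IV pump protons, and complex V, the ATP synthase, lets protons flow back and makes ATP. Heart muscle holds these enzymes at high density, as brown fat does complexes II, III and IV, and smooth muscle of the vessel wall holds fewer. Several complex IV subunits exist as isoforms for different tissues.

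Transcription of many such genes is known to depend on the factors NRF1 and GABP, which bind near transcription starts. Promoter windows, from 250 bases before to 50 bases after the start, were taken from RefSeq (GRCm38.p6) and were found for 33 of the 45 genes. The letters GCATGCGC, a core of the NRF1 motif, were searched on both strands and occurred in 8 of the 33 windows (24.2%). Over all 27025 genes with such a window the share was 3.0%, and over the 6738 of them tested on these arrays it was 6.1%. The 8 sites are shown because they are a sequence feature that the choice of genes did not use. Each is printed 5′ to 3′ along the gene with the NRF1 letters in capitals. A run of GCGCATGCGC holds the core on both strands and was counted as a single match.
Sdhb, chr4:140961206-140961235, plus strand: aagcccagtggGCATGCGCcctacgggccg
Uqcrc1, chr9:108936667-108936696, plus strand: gactccgctctGCGCATGCGCagcgcggct
Uqcr11, chr10:80406807-80406836, minus strand: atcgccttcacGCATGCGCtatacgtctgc
Cycs, chr6:50566611-50566640, minus strand: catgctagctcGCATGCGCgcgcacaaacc
Cox6a1, chr5:115349102-115349131, minus strand: acaggaacgggGCGCATGCGCgctctcgct
Atp5g2, chr15:102671071-102671100, minus strand: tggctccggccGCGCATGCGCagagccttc
Atp5k, chr5:108434431-108434460, minus strand: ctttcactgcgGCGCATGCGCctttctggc
Atp5l, chr9:44920963-44920992, minus strand: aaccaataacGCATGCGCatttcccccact

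These NRF1 letters began 54 bases before the start in Sdhb, 60 before it in Cycs and 31 bases into the transcript of Uqcrc1. The GABP core CCGGAAG, on either strand, occurred in 13 of the 33 windows (39.4%), against 9.9% of all genes and 19.9% of those tested. As examples, a site is shown for 4 of these 13 genes, the GABP letters in capitals: Sdhb, Sdhd and Cox8a, whose diet values are among those of smallest p, and Cox6b1, of complex IV. Cox8a has another such site after its start.
Sdhb, chr4:140961266-140961295, plus strand: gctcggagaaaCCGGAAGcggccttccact
Sdhd, chr9:50603877-50603906, minus strand: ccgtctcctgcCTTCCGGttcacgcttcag
Cox6b1, chr7:30626124-30626153, minus strand: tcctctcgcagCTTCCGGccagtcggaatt
Cox8a, chr19:7217603-7217632, minus strand: tttccgaaataCTTCCGGctcgggcgtccg

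At least 1 of these cores was present in 16 of the 33 windows. The other motifs searched were less frequent: AAGGTCA, bound by estrogen-related receptors, in 5 windows (15.2%, against 5.4% of all genes and 3.9% of those tested), AAGATGG, the core for YY1, in 4 (12.1% against 7.3% and 8.7%), and TGACGTCA, the cyclic AMP response element, in 2 (6.1% against 2.0% and 3.6%), those of Cycs and Uqcrfs1. Cycs has the CRE and the NRF1 core together, and its 200 bases before the start, chr6:50566570-50566769 on the minus strand, are given with both in capitals.
Cycs: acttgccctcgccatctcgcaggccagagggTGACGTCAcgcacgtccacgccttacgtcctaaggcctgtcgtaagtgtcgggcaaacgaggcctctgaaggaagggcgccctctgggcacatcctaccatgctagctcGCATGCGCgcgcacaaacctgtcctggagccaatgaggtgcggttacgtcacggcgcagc
A match is a stretch of letters and not a measured binding site. The 8 tested genes with the NRF1 core had a median log2 difference between the diets of 0.15, and the 23 without it 0.12. For the GABP core these medians were 0.10 in 13 genes and 0.16 in 18.

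Most of these genes had a slightly higher mean on high fat diet, and no single gene passed the test. Of the 43 that passed a filter on low signal, 39 had a higher mean on high fat diet and 4 a lower one, against a higher mean in 48.2% of all 13575 probe sets tested and in 50.9% of genes when each is given by its brightest probe set. With the arrays set to equal medians the split was 34 to 9, and with chow replicate 1 left out it was 31 to 13, over 44 genes. With high fat replicate 1, high fat replicate 2 or chow replicate 2 left out it was 36 to 7. Shares of all probe sets with a higher mean are not given under these settings, so these splits cannot be set beside them. At the deposited scaling the median log2 difference of the 43 was 0.15, a fold of 1.11. The median of all probe sets was -0.01 there and -0.05 with equal medians. Differences are on the scale of log2(signal + 6). None of the 43 reached an adjusted p of 0.05 in limma with Benjamini-Hochberg adjustment over all probe sets, a threshold that 0.0737% of all probe sets passed. The adjusted p-values lay between 0.452 and 0.974.

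At an unadjusted p of 0.05, 7 of the 43 (16.3%) were higher and 0 lower, where 3.92% of all probe sets were higher and 3.11% lower (4.28% of genes were higher at 1 probe set per gene). These 7 were Sdhb and Sdhd of complex II, Uqcrc1, Uqcrc2 and Uqcrfs1 of complex III, Cox8a of complex IV and Atp5a1 of complex V. Leaving out high fat replicate 1 made the 7 into 12. The number was 2 when high fat replicate 2 was left out, and also 2 with either chow replicate 1 or 2 left out. Shares of all probe sets at this p with an array left out are not given, so these numbers cannot be set beside them. All 3 high fat arrays lay above all 3 chow arrays for 4 genes (9.3%), Sdhd, Uqcrc1, Cox4i1 and Atp5a1, against 6.26% of all probe sets and 6.79% of genes at 1 probe set per gene, and 0 lay wholly below, against 6.08%. Complexes II and III had the higher medians, 0.27 and 0.29, and complexes IV and V had 0.12 and 0.10. Whether the complexes differed from each other was not tested.

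**Figure D1:**
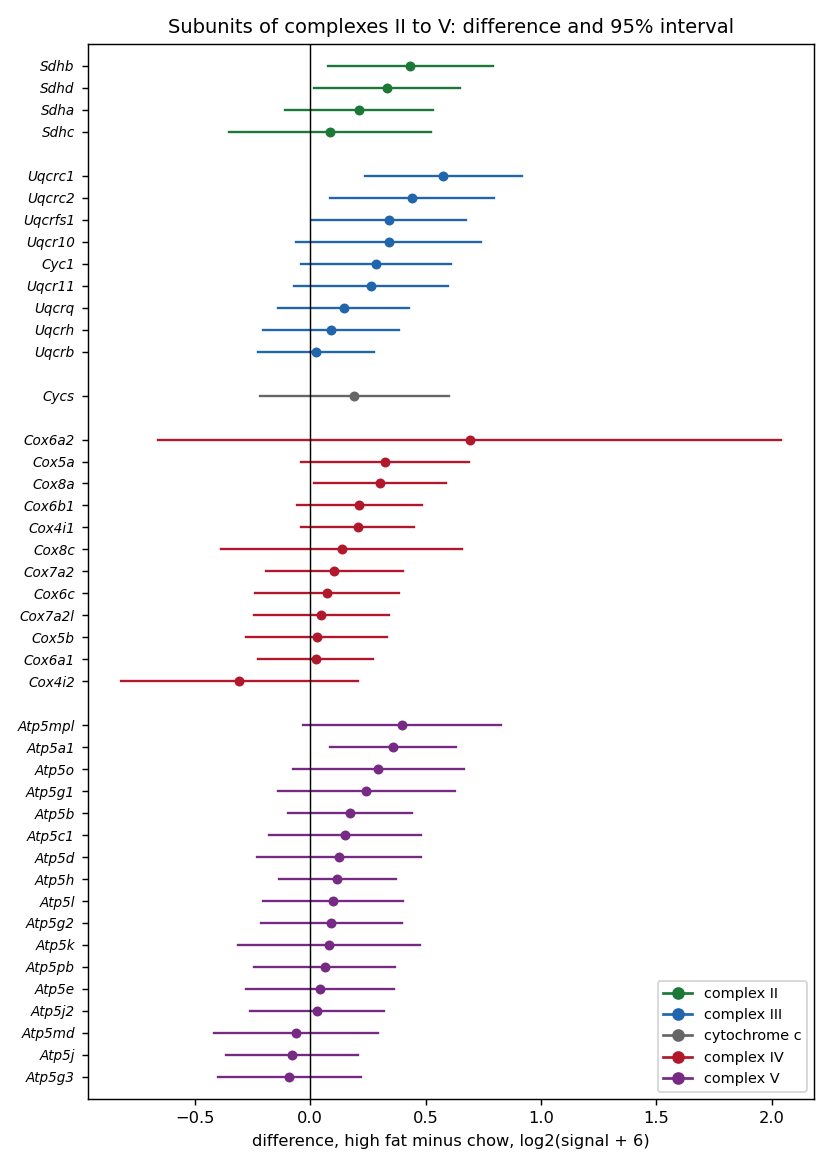
Difference between the diets for each of the 43 tested genes, as log2(signal + 6) on high fat diet minus chow, with points for the estimate, bars for its 95% interval and colours for the complex. Intervals of 7 genes exclude 0, all above it, and Cox6a2 has the widest, from -0.66 to 2.04.

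The 3 arrays of a diet did not carry these genes at the same level. As a log2 deviation from each gene's mean of 6 arrays, the median over the 43 genes was 0.03, 0.21 and 0.03 on high fat replicates 1, 2 and 3, and -0.18, -0.11 and 0.04 on chow replicates 1, 2 and 3. Chow replicate 3 thus lay at the level of high fat replicates 1 and 3. Of the 43 genes, 34 had their highest chow signal on chow replicate 3 (32.7% of all probe sets did), and 30 had their highest high fat signal on high fat replicate 2 (35.8% of all probe sets did). On chow replicate 3, 36 genes reached the lowest high fat array, and for 15 genes it was the only chow array to do so. Without it, 19 of the 43 (44.2%) had all high fat arrays above both remaining chow arrays, against 12.1% of all probe sets. With high fat replicate 1 left out that number was 13 (11.8% of all probe sets), and with high fat replicate 3 left out it was 10 (14.1%). Leaving out high fat replicate 2 gave 5 (9.19%), chow replicate 1 gave 4 of 44 (10.5%) and chow replicate 2 gave 5 (10.2%).

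**Figure D2:**
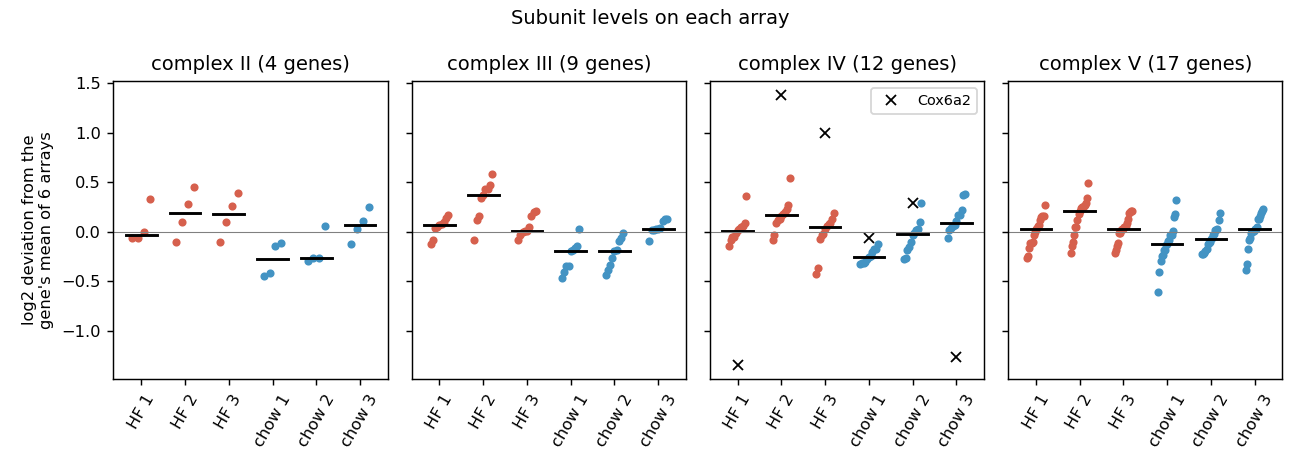
Each point is a gene, placed by its log2 deviation from its own mean of 6 arrays, for high fat (HF, red) and chow (blue) arrays, and black lines are medians of the complex. Chow 1 and chow 2 lie below 0 in each complex, while chow 3 lies level with HF 1 or above it in complexes II and IV, and Cox6a2 (crosses) stands apart.

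Complex II consists of the flavoprotein Sdha, which binds succinate, the iron-sulfur protein Sdhb, and the membrane anchors Sdhc and Sdhd, which bind ubiquinone. All 4 means were higher on high fat diet. Sdhb had signals of 1797, 2563 and 2233 on high fat replicates 1, 2 and 3 and of 1401, 1555 and 1906 on chow replicates 1, 2 and 3. High fat replicate 1 lay below chow replicate 3, so the diets overlapped. The log2 difference was 0.43 ± 0.16 (SE, adjusted p = 0.621, limma).

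Sdhd had 744.1, 799.3 and 979 on high fat diet and 686.3, 619.4 and 681.2 on chow. The diets did not overlap, and high fat replicate 3 was the highest array. The log2 difference was 0.33 ± 0.14 (adjusted p = 0.680, limma), or 0.22 with high fat replicate 3 left out. Sdha had 1410, 1789 and 1571 against 1332, 1201 and 1589, with chow replicate 3 inside the high fat range and a log2 difference of 0.21 ± 0.14, which was 0.12 with either high fat replicate 2 or chow replicate 2 left out and 0.32 with chow replicate 3 left out. Sdhc had 760.1, 559.9 and 559.4 against 441.3, 626.9 and 718.4, and its arrays were mixed, with a log2 difference of 0.09 ± 0.20 that was -0.11 with chow replicate 1 left out and -0.060 with high fat replicate 1 left out.

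Complex III gave the gene of smallest p. Its core holds cytochrome b, encoded in mitochondria, cytochrome c1 (Cyc1), the Rieske iron-sulfur protein (Uqcrfs1) and the large core proteins Uqcrc1 and Uqcrc2, and 5 small supernumerary subunits were also measured. Uqcrc1 had signals of 1942, 2747 and 2118 on high fat diet and of 1450, 1360 and 1721 on chow. Every high fat array lay above every chow array, with the highest value on high fat replicate 2. The means were 2269 ± 423 and 1511 ± 188 (SD, n = 3 each), and the log2 difference was 0.58 ± 0.15, with a 95% interval from 0.24 to 0.92 (adjusted p = 0.452, limma).

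Uqcrc2 had 1589, 1924 and 1707 against 1126, 1137 and 1624. Chow replicate 3 exceeded the lowest high fat array, and the other chow arrays lay well below. The log2 difference was 0.44 ± 0.16 (adjusted p = 0.594, limma). Uqcrfs1, the Rieske protein, had 1516, 1955 and 1454 against 1262, 1145 and 1465, a log2 difference of 0.34 ± 0.15 (adjusted p = 0.700, limma), again with only chow replicate 3 inside the high fat range. Cyc1 had 2041, 2671 and 1937 against 1749, 1650 and 2013, a log2 difference of 0.29 ± 0.15. With high fat replicate 2 left out the differences of Cyc1 and Uqcrfs1 were 0.14 and 0.21.

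Among the supernumerary subunits, Uqcr10, Uqcr11, Uqcrq, Uqcrh and Uqcrb had log2 differences of 0.34, 0.26, 0.15, 0.09 and 0.03, and in limma their adjusted p-values lay between 0.751 and 0.972. The median was 0.39 over the 4 core genes and 0.15 over these 5. This division was made after the values were seen, and no difference across it was tested. The median of complex III was 0.16 without high fat replicate 2.

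Cytochrome c, the small protein that carries electrons from complex III to complex IV, is encoded by Cycs in somatic cells. Its probe set of highest signal had 2428, 2389 and 1610 on high fat diet and 1975, 1486 and 2132 on chow. High fat replicate 3 lay below 2 of the chow arrays, and the log2 difference was 0.19 ± 0.19 (adjusted p = 0.864, limma). It was 0.037 with chow replicate 2 left out, 0.090 or 0.10 with high fat replicate 1 or 2 left out, and 0.39 or 0.30 with high fat replicate 3 or chow replicate 3 left out. The other Cycs probe sets gave another picture. The next had 1556, 1710 and 1589 against 1051, 895.5 and 1284, a log2 difference of 0.60 ± 0.15 (adjusted p = 0.402, limma), and the last had 739.4, 728.9 and 821 against 638.1, 432.2 and 547.3, a log2 difference of 0.51 ± 0.16 (adjusted p = 0.521, limma). In these last pair of probe sets the diets did not overlap.

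**Figure D3:**
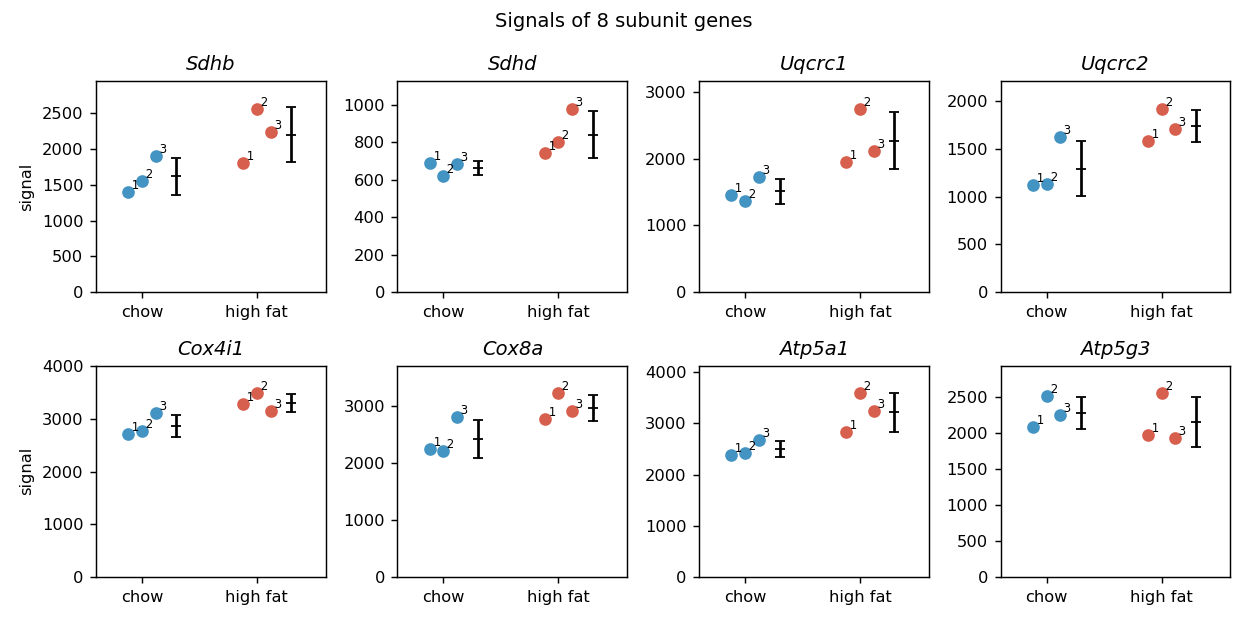
Signals of 8 genes on each array, numbered by replicate, with the mean and SD (n = 3 pools) beside them on axes that start at 0. The diets do not overlap for Sdhd, Uqcrc1, Cox4i1 and Atp5a1, and for Atp5g3 the mean is lower on high fat diet.

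The complex IV subunits made in most tissues had a median log2 difference of 0.10, and all 9 tested had higher means. Cox4i1, the widely expressed isoform of subunit 4, had 3279, 3489 and 3143 on high fat diet and 2723, 2765 and 3113 on chow. The diets did not overlap, although high fat replicate 3 and chow replicate 3 were close, and the log2 difference was 0.21 ± 0.11 (adjusted p = 0.752, limma). Cox8a, a small subunit of the membrane part, had 2772, 3224 and 2917 against 2239, 2214 and 2800, a log2 difference of 0.30 ± 0.13 (adjusted p = 0.679, limma), and chow replicate 3 lay within the high fat range.

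Cox5a, which faces the matrix, had 2062, 3311 and 2420 against 1919, 2008 and 2175, a log2 difference of 0.33 ± 0.16, with high fat replicate 2 far above the other arrays, and 0.14 with that array left out. Cox6b1, on the side of the intermembrane space, had 3132, 3598 and 3195 against 2542, 2849 and 3195, a log2 difference of 0.21 ± 0.12, and chow replicate 3 reached high fat replicates 1 and 3. The difference of Cox6b1 was 0.13 with chow replicate 1 left out. Cox7a2, the widely expressed isoform of subunit 7a, had 3257, 3696 and 3565 against 2737, 3311 and 3807, a log2 difference of 0.10 ± 0.13, and the diets were mixed. Cox5b, Cox6c and Cox7a2 each had their highest signal of all 6 arrays on chow replicate 3.

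Cox7a2l, a relative of subunit 7a that joins complexes III and IV into supercomplexes, had 783.7, 811.6 and 947.5 against 760.2, 840.8 and 851.4, a log2 difference of 0.05 ± 0.13. C57BL/6 mice are known to carry a shortened form of this protein. The remaining widely expressed subunits, Cox5b and Cox6c, had log2 differences of 0.03 and 0.07. For Cox7c both probe sets were dim, with signals between 3.7 and 32.8 in the brighter, so that it did not pass the filter and has no test. The median of complex IV was 0.12 over 12 genes. It was 0.011 with chow replicate 1 left out, 0.074 with high fat replicate 2 left out and 0.22 with chow replicate 3 left out.

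Other isoforms of complex IV are known from particular tissues. Cox6a2, the isoform of heart and skeletal muscle, had signals of 95.9, 669.5 and 511.9 on high fat diet and of 242.8, 309.8 and 101.9 on chow. The spread within each diet was several-fold, with high fat replicate 1 and chow replicate 3 lowest. Its log2 difference was 0.69 ± 0.61, with an interval from -0.66 to 2.04 (adjusted p = 0.852, limma). Its counterpart in other tissues, Cox6a1, had 4487, 4703 and 4186 against 3916, 4520 and 4747, a log2 difference of 0.02 ± 0.11 that was -0.02 with equal medians. Cox6a1 thus varied far less from array to array.

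By their mean, cardiac muscle markers were also lowest on high fat replicate 1 and chow replicate 3. Single markers departed from this on chow. Myl7, Nppa and Nppb had their highest chow signal on chow replicate 3, and Myl4 and Myh7 were lowest on another chow array. Myh6, a cardiac myosin heavy chain picked with its values in view, had 57.6, 668.8 and 692.4 on high fat diet and 226.4, 256.5 and 55.4 on chow. All 13 tested of 14 cardiac markers on the array had higher means on high fat diet, and the smallest adjusted p in limma was 0.736, that of Ryr2. Their summed signal ran from 1196 to 8782 on high fat diet and from 1130 to 4484 on chow, and none was at 0 on all arrays. As mean log2 deviations these markers stood at -1.13, 1.26 and 0.90 on high fat replicates 1, 2 and 3 and at -0.12, 0.23 and -1.14 on chow, while Cox6a2 ranged from -1.35 to 1.38. With the cardiac mean as a covariate the difference of Cox6a2 was -0.10, and the median of all 43 genes was 0.16. What part cardiac muscle cells had in the Cox6a2 signal was not tested. The difference of Cox6a2 was 1.54 (adjusted p = 0.259, limma) with high fat replicate 1 left out. It was 0.17 or 0.36 with high fat replicate 2 or 3 left out, and 1.01 or 0.23 with chow replicate 2 or 3 left out.

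**Figure D4:**
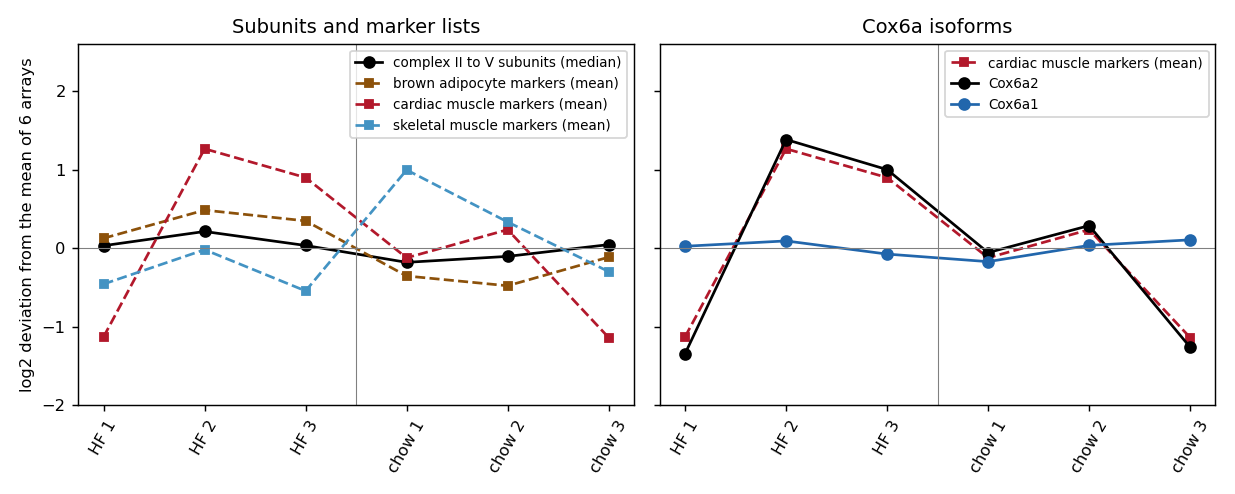
Log2 deviations from the mean of 6 arrays for high fat (HF) and chow pools: on the left the median of the 43 subunit genes with the means of 3 marker lists, on the right the Cox6a isoforms with the cardiac markers. Cox6a2 runs from -1.35 on HF 1 to 1.38 on HF 2 beside the cardiac markers, at -1.13 and 1.26, while Cox6a1 stays close to 0.

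Cox4i2, the isoform of subunit 4 known from lung and from low oxygen, had 63.7, 57.8 and 44.3 against 52.7, 76.8 and 81.3. Its lower mean on high fat diet, a log2 difference of -0.31 ± 0.23 (adjusted p = 0.821, limma), came from overlapping arrays at signals close to the filter. It was -0.49 or -0.20 with chow replicate 1 or 3 left out and -0.17 with high fat replicate 3 left out. Cox8c, known from testis, had 331.5, 295.1 and 197.9 against 203.5, 212.4 and 334.3, a log2 difference of 0.14 ± 0.24. Cox6b2, another testis isoform, had 48.9, 31.6 and 57 against 26.6, 32.3 and 40.9 and did not pass the filter. No detection calls were used, so the low signals of Cox4i2 and Cox6b2 cannot be separated from background.

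Cox7a1 and Cox8b, the isoforms of heart, skeletal muscle and brown fat, were left out of the 45 and had larger log2 differences than Cox7a2 and Cox8a. Cox8b had 2989, 3631 and 2420 against 1649, 1768 and 2535, a log2 difference of 0.61 ± 0.19 (adjusted p = 0.516, limma), with only chow replicate 3 inside the high fat range. Cox7a1 had 1017, 971.6 and 844.2 against 477.6, 405 and 676.7 without overlap, a log2 difference of 0.88 ± 0.19 (adjusted p = 0.299, limma). Whether each differed from its counterpart was not tested. Chow replicate 3 was the highest chow array for both.

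Complex V turns as protons pass, and its head makes ATP. Of its 17 genes 14 had higher means and 3 lower ones. In the head, Atp5a1, the alpha subunit, had 2826, 3589 and 3233 on high fat diet and 2381, 2430 and 2677 on chow. The diets did not overlap, and the log2 difference was 0.36 ± 0.12, with an interval from 0.09 to 0.63 (adjusted p = 0.580, limma). Atp5b, the catalytic beta subunit that pairs with it, had 2590, 3016 and 2509 against 2476, 2178 and 2530, a log2 difference of 0.17 ± 0.12. Its arrays overlapped through chow replicate 3, and the difference was 0.093 with high fat replicate 2 left out and 0.11 with chow replicate 2 left out. The gamma, delta and epsilon subunits, Atp5c1, Atp5d and Atp5e, had differences of 0.15, 0.12 and 0.04.

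In the peripheral stalk, which holds the head still, Atp5o had 1013, 1529 and 1132 against 884.2, 1104 and 967.3, a log2 difference of 0.30 ± 0.17. High fat replicate 2 was far above the others, and with it left out the difference was 0.13. Atp5h and Atp5pb had 0.12 and 0.06. Atp5j, coupling factor 6, had 1245, 1024 and 1213 against 1195, 1171 and 1302, a log2 difference of -0.08 ± 0.13 with high fat replicate 2 lowest.

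The c ring, which rotates in the membrane, is built from 1 mature protein encoded by 3 genes. Atp5g1 had 365.8, 479.9 and 456.4 against 370.6, 429.6 and 301.4, a log2 difference of 0.24 ± 0.17, or 0.11 with chow replicate 3 left out. Atp5g2 had 998.6, 1286 and 1071 against 946.3, 1093 and 1096, a log2 difference of 0.09 ± 0.14. Atp5g3 had 1972, 2551 and 1934 against 2076, 2520 and 2249, a log2 difference of -0.09 ± 0.14. The diets overlapped for each, and intervals of all 3 include 0, from -0.40 at the lowest to 0.63 at the highest.

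Among the accessory subunits of the membrane part, Atp5mpl had 1008, 1020 and 861.9 against 548.2, 716 and 977.9, a log2 difference of 0.40 ± 0.19 (adjusted p = 0.735, limma), with chow replicate 3 within the high fat range. With that array left out the difference was 0.61, and with chow replicate 1 left out it was 0.20. Atp5md had 296.2, 349.6 and 413 against 397.1, 341.9 and 358.4, a log2 difference of -0.06 ± 0.16. Atp5j2, Atp5k and Atp5l had 0.03, 0.08 and 0.10. Over all 43 genes the standard errors ran from 0.11 to 0.61, with a median of 0.14.

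The choice of probe set mattered for several genes. Of 84 probe sets of the 45 genes 75 passed the filter, of which 70 had a higher mean on high fat diet, 5 a lower one, and 14 an unadjusted p under 0.05. Of all probe sets tested 48.2% had a higher mean, and at that p 3.92% were higher and 3.11% lower. For 23 genes with over 1 such probe set, the median log2 difference was 0.12 at the probe set of highest signal and 0.22 at the next, which was the larger in 15 of the 23. Besides Cycs, the second probe set of Uqcrc2 had 952, 1133 and 1213 against 822.7, 661.7 and 706.7, a log2 difference of 0.58 ± 0.14 (adjusted p = 0.408, limma) without overlap. Atp5pb had 0.38 at its second probe set against 0.06, and Cox6b1 had 0.39 against 0.21. Cox5a and Atp5a1 went the other way, with 0.00 and 0.18 at the next probe set. None of the 75 had an adjusted p under 0.05 in limma. Of the 43 probe sets used above, 10 carry a suffix (_x_at or _s_at) for possible binding to related transcripts, and many of these genes have processed pseudogenes.

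**Figure D5:**
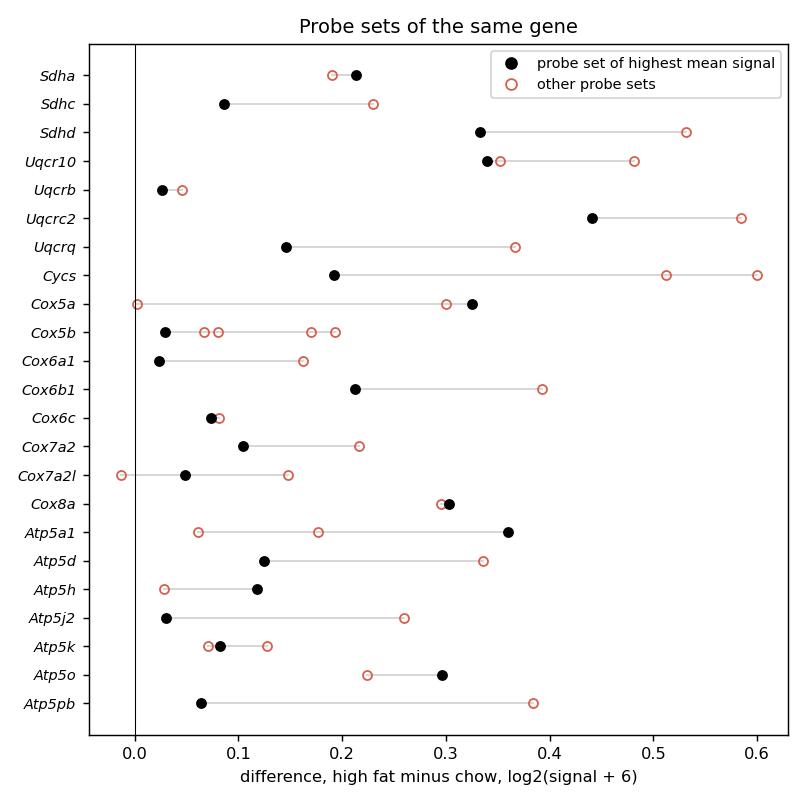
Log2 differences, high fat minus chow, for the 23 genes with over 1 probe set past the filter, with filled points for the probe set of highest mean signal and open points for the others. The spread is widest for Cycs, from 0.19 to 0.60, Cox5a, from 0.00 to 0.33, and Atp5pb, from 0.06 to 0.38.

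Other genes of the pathway were read from fixed lists. Of 34 complex I subunits tested, 32 had higher means, with a median log2 difference of 0.25. An unadjusted p under 0.05 was found for 7, all higher, and 8 were higher without overlap, against 3.92% and 6.26% of all probe sets. Ndufb9, an accessory subunit, had 2510, 2575 and 2724 against 1931, 1739 and 2108, and Ndufs4, another, had 311.3, 377.4 and 373.7 against 214.9, 248.3 and 299.4. Neither overlapped between the diets. ND5, a complex I subunit encoded in the mitochondrial genome, had 3287, 4800 and 4265 against 3248, 5126 and 4123, a log2 difference of -0.01 ± 0.18, and its arrays were fully mixed.

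Of 28 assembly factors of complexes II to V, 24 had higher means, with a median of 0.22, 3 higher with an unadjusted p under 0.05 and 10 higher without overlap between the diets, beside the same shares of all probe sets, 3.92% and 6.26%. Atpaf2, which assembles the head of complex V, had 190.3, 162.5 and 167.1 against 90.7, 109.6 and 108.7, a log2 difference of 0.72 (adjusted p = 0.330, limma). Sdhaf4, which helps Sdha join complex II, had 266.4, 345.8 and 340.6 against 203.1, 189.6 and 216.3, a log2 difference of 0.62 (adjusted p = 0.445, limma). In neither did the diets overlap. Of 21 other mitochondrial genes of import, membrane and matrix, 17 had higher means, with a median of 0.21. At an unadjusted p under 0.05, 4 were higher and 0 lower, against 3.92% and 3.11% of all probe sets. Chchd3, of the cristae, had 373.3, 512.6 and 480.7 against 379.8, 299.9 and 331.1, and Letm1, of the inner membrane, had 185.7, 249.8 and 206.3 against 160.2, 140.2 and 172.5. Of 10 genes that supply electrons or exchange ions and nucleotides, 7 had higher means, with a median of 0.45. At that p 4 were higher and 1 lower, against the same shares of all probe sets. Etfa, which feeds electrons from fat oxidation, had 1436, 1791 and 1785 against 914.3, 1038 and 1270 (adjusted p = 0.395, limma), and Ucp1, the uncoupling protein of brown fat, had 3664, 3623 and 3154 against 2593, 2122 and 2724 (adjusted p = 0.445, limma).

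Regulators of mitochondrial biogenesis were mixed, with 8 of 15 higher and a median of 0.03. Nrf1 and Gabpa, which encode the factors whose motif letters were searched, had differences of 0.03 and -0.03. Esrra, an estrogen-related receptor, had 133.9, 136.4 and 115.4 against 89, 97.9 and 86.7, a difference of 0.47 (adjusted p = 0.586, limma), and Ppargc1b, its coactivator, had 333.2, 328.4 and 361.8 against 234.2, 226.3 and 297, a difference of 0.43 (adjusted p = 0.594, limma). These were the 2 regulators with an unadjusted p under 0.05, where 3.92% of all probe sets were higher at that p. No gene of the pathway lists above passed an adjusted p of 0.05 in limma.

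Markers of other cell types also differed between the arrays. Of 11 brown adipocyte markers on the array 10 were tested and 9 had higher means, with a median of 0.55. Fabp3, a fatty acid binding protein of heart and brown fat, alone passed (adjusted p = 0.00163, limma). At an unadjusted p under 0.05 in limma, 7 were higher and 0 lower, against 3.92% and 3.11% of all probe sets. Without overlap 6 were higher, against 6.26%. The list holds Cox7a1 and Cox8b. The summed signal of the 11 ran from 12897 to 15364 on high fat diet and from 7717 to 9776 on chow, without overlap, and none was at 0 on all arrays. Chow replicate 3 was the highest chow array for their mean too, at -0.12, against -0.36 and -0.48 on chow replicates 1 and 2. The white adipocyte markers had 0.18 on chow replicate 3 against -0.20 and -0.23 on chow replicates 1 and 2, and between 0.01 and 0.14 on high fat diet, with summed signals of 22112 to 23776 on high fat diet and 20162 to 25306 on chow. Of 15 white adipocyte markers tested, 11 had higher and 4 lower means, with a median of 0.074. At an unadjusted p under 0.05 in limma, 2 were higher and 2 lower, and 3 were higher without overlap, beside the same shares. Retn, the adipokine resistin, fell by 1.06 on the log2 scale (adjusted p = 0.0435, limma), and Car3, a carbonic anhydrase abundant in fat, had a difference of -0.91 (adjusted p = 0.0768, limma). What part brown or white fat cells had in the subunit values was not tested.

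Of 12 skeletal muscle markers 6 were tested and 5 had lower means on high fat diet, with summed signals of 442.5 to 772.1 against 556.5 to 1250 on chow. Of these, 3 had an unadjusted p under 0.05 in limma, against 3.11% of all probe sets lower. Mean deviations of the 12 were -0.46, -0.02 and -0.55 on high fat replicates 1, 2 and 3 and 1.0, 0.33 and -0.30 on chow. With the skeletal marker mean as a covariate 27 of the 43 subunit genes were higher and the median was 0.11, while that of complex IV was -0.06. This covariate ran partly with diet, so the fit cannot separate the 2. Smooth muscle markers, which define the tissue, were bright on every array. Their median log2 difference was -0.14, with 10 of 12 lower on high fat diet, of which Itga8 alone had an unadjusted p under 0.05. They had summed signals of 28086 to 28991 on high fat diet and 27562 to 33615 on chow. Macrophage, endothelial and fibroblast markers had medians of 0.55, 0.24 and -0.12, with 9 of 10, 10 of 11 and 3 of 7 higher. In limma 5, 2 and 0 of them were higher at an unadjusted p under 0.05, against 3.92% of all probe sets. Without overlap 3, 4 and 0 were higher, against 6.26%. The actin control probe sets, whose 3′ over 5′ signal is a sign of RNA quality, gave ratios of 1.27, 1.94 and 1.56 on high fat replicates 1, 2 and 3 and 1.37, 1.79 and 1.49 on chow. For the Gapdh control probe sets these ratios were 0.96, 1.07 and 1.04 on high fat diet and 0.89, 1.38 and 1.18 on chow. The highest ratio was thus on high fat replicate 2 for actin and on chow replicate 2 for Gapdh. The part of these in the subunit values was not tested.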

How the data were processed

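The authors deposited MAS5 signals, that is intensities on a linear scale, for 22690 probe sets, with MAS5 named in the submitters' processing notes. Its version and target value were not given in the sources used here. Per the labels' protocols, biotin-labelled cRNA was made from 5 µg of RNA. The deposited scaling was kept, and array medians lay between 58.4 and 66.6. No detection calls were used, and the number of arrays limits the precision.

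After removal of 64 controls, log2(signal + 6) was taken, 6 being the 10th percentile. The filter required a mean signal over 40.7, the 40th percentile, and left 13575 probe sets. Diets were compared in limma 3.58.1 (R 4.3.3; lmFit, eBayes with a variance trend, two-sided, Benjamini-Hochberg over the probe sets left). The scripts were tested on simulated data. In the platform annotation 20380 probe sets had 1 gene, 691 several and 1555 none, and only the first were named. Members and lists were chosen with earlier results of these data known, so counts over them are descriptions.

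Values of all arrays were given for up to 4 genes of smallest p per complex, Cycs, the tissue isoforms of complex IV, the c ring, genes of lower mean and up to 2 genes of smallest p per pathway list. Nrf1, Gabpa and Myh6 fall outside this rule. Alternatives were other pseudocounts, filters, scalings, variance models, array weights, probe set choices, muscle marker covariates, a replicate block and each array left out. The other probe sets of each gene were added after the data were seen. Tables and figures used Python 3.11.15, pandas 2.3.3 and matplotlib 3.10.9.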

Additional observations from a re-analysis of the deposited data

How the results depend on the processing

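With 3 pools per diet, no subunit gene reached an adjusted p of 0.05 in limma under any of the 20 alternatives, and the median log2 difference of all members lay between 0.10 and 0.23. The 7 genes with an unadjusted p under 0.05 were 4 with equal medians, 4 without the variance trend, 4 with the cardiac covariate and 2 with the skeletal covariate, and from 2 to 12 with single arrays left out. The 4 genes without overlap were 7 with quantile normalization, 9 when a gene's probe sets were averaged, and from 5 to 19 (either direction) with single arrays left out. Under these alternatives, shares of all probe sets are given only for non-overlap with single arrays left out. The other counts thus cannot be set beside such a share. The median of complex IV was -0.061 with the skeletal covariate, which ran partly with diet. The cause was not tested, although fewer arrays make overlap rarer by construction. With the replicate number as a block, 8 genes had an unadjusted p under 0.05 and the median stayed at 0.15. Deviations of same-numbered arrays correlated at 0.03, 0.17 and -0.11, and not every array correlated best with its own number, so the numbers were not taken to pair the pools.

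Of 559 values for the 28 named genes tested, 19 in 9 genes had the opposite sign. Cox6a1 had -0.019 with equal medians, -0.0077 with array weights and -0.071 with the skeletal covariate. Under that covariate Sdhc had -0.26, Cox7a2 -0.085, Cox7a2l -0.051 and Cox8c -0.11. Cox6a2 had -0.096 with the cardiac covariate. With single arrays left out, values ran from -0.11 to 0.23 for Sdhc, -0.057 to 0.082 for Cox6a1, -0.020 to 0.22 for Cox7a2, -0.034 to 0.10 for Cox7a2l, -0.011 to 0.36 for Cox8c, -0.012 to 0.17 for Atp5g2, -0.13 to 0.0084 for Atp5j and -0.18 to 0.057 for Atp5md.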
